A study of Homo sapiens with 6 samples.

Results

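Stem cell and erythroid regulators were examined in OCI-AML3 cells, an acute myeloid leukemia (AML) line with a heterozygous NPM1 mutation (mtNPM1), a heterozygous DNMT3A mutation and a homozygous NRAS mutation. The 7 genes GATA2, TAL1, LMO2, LYL1, MECOM, KLF1 and ZFPM1 were taken by name, out of 20136 coding genes on GRCh37 and 19662 on GRCh38. For each, the peaks in the gene record with 20 kb on either side were read from 4 lists, and for GATA2 the window reached 150 kb upstream. The cells had been transfected with a control guide (sgNeg) or a guide against mtNPM1 (sgNpm1A) and were harvested at day 3 according to the labels, although the study's text gives a longer time. H3K27Ac, an acetylation of histone H3 found on active enhancers and promoters, and H3K4me3, a trimethylation found at active promoters, were each profiled by ChIP-seq in 1 library per guide. By their labels, the groups of a mark came from this line and differ in the guide. A peak list does not show whether the edit was made. With 1 library in each group no difference below could be set against replicate spread, and no p-value is given for any of them.

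These genes encode transcription factors of one network. GATA2 is a zinc finger factor of blood stem and progenitor cells and mast cells. TAL1 and its close relative LYL1 are basic helix-loop-helix factors that bind E-box motifs with an E-protein partner. LMO2 binds no DNA itself and bridges TAL1 or LYL1 to a GATA factor through LDB1. MECOM (EVI1) maintains stem cells and is silent in most mature blood cells. KLF1 is the erythroid Krüppel-like factor that switches on adult globin genes, and ZFPM1 (FOG1) is the cofactor of GATA1 in red cells and megakaryocytes. In AML, chromosome 3 rearrangements that move a far upstream GATA2 enhancer next to MECOM activate the latter. The myeloid regulators used for contrast, SPI1, CEBPA, CEBPB, CEBPE, GFI1, IRF8 and KLF4, drive granulocytes and monocytes.

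GRCh37 is the build of the H3K27Ac coordinates and GRCh38 that of the H3K4me3 coordinates, because the lists run past the chromosome ends of the other build. Every label names OCI-AML3, but the tag in the names of the H3K27Ac lists reads OCI2 and that of the H3K4me3 lists OCI3, with no stated meaning. The study also worked with OCI-AML2, a line with wild-type NPM1. Whether the H3K27Ac lists come from another line could not be settled here, and if they did, no H3K27Ac value below would describe mtNPM1 knockout in OCI-AML3. The lists held 327715 (sgNeg) and 317059 (sgNpm1A) H3K27Ac peaks, and 353628 (sgNeg) and 106641 (sgNpm1A) H3K4me3 peaks. The sequencing depth of a library is not recorded in its list. For H3K4me3 the deposited fold enrichment could be turned back into whole fragments at the summit for 100% of peaks, within 0.02 of a fragment, over a background of 3.81 fragments in sgNeg and 2.93 in sgNpm1A. The weakest listed H3K4me3 summit held 11 fragments in sgNeg and 10 in sgNpm1A, so a promoter without a listed peak can still carry the mark. Fold enrichment is scaled within a library. Peaks are therefore described by their percentile of fold in their own list. There 100 is the highest fold, and a promoter with no peak was given 0. Fold was read as a summit value for H3K4me3 only. Whether an H3K27Ac fold is a summit value or a mean over the peak was not established here. Percentiles are therefore not compared between the marks, and a wide H3K27Ac peak may hold stronger points than its fold.

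The DNA element that ties these genes together is a composite of an E-box core (CTG) followed by GATA after 8 or 9 bases, written CTGNNNNNNNNGATA and CTGNNNNNNNNNGATA, the pattern recognised by the complex of TAL1, LMO2, LDB1 and a GATA factor. Both strands were searched, and no CTG can match both spacings. Of the matches in the member windows, 4 at GATA2 are shown because they separate positions with and without H3K27Ac, with 1 match each for LMO2, ZFPM1 and LYL1. Each is printed from 5′ to 3′ on the strand that reads CTG first, from GRCh37, with the composite in capitals.
GATA2 intron, chr3:128202125-128202200, minus strand: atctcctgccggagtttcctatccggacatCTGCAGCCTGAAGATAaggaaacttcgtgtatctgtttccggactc
GATA2 2415 bp upstream, chr3:128214414-128214489, minus strand: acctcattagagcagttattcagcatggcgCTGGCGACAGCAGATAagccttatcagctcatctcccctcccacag
GATA2 118 kb upstream, chr3:128329775-128329849, plus strand: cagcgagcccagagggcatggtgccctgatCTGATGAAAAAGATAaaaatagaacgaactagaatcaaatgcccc
GATA2 120 kb upstream, chr3:128331878-128331952, minus strand: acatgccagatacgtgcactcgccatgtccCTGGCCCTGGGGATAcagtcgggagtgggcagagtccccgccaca
LMO2 401 bp upstream, chr11:33913980-33914054, minus strand: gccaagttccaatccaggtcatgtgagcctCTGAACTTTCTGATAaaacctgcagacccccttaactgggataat
ZFPM1 79.1 kb inside the gene, chr16:88598791-88598865, minus strand: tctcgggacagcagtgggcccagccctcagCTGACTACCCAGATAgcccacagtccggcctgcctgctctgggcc
LYL1 start region, chr19:13213683-13213698, plus strand: CTGGCCGCGCCTGATA

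The composite in the GATA2 intron, 9.87 kb inside the gene, lay under no listed H3K27Ac peak in either list. The match 2415 bp upstream lay under a 757-bp peak in sgNeg and a 1357-bp peak in sgNpm1A. The match 118 kb upstream was covered in sgNeg only, by a 1897-bp peak, and the one 120 kb upstream was covered in both lists, by peaks of 1638 bp and 622 bp. The LMO2 and LYL1 matches were under the large sgNeg peaks of those genes (13328 bp and 6630 bp) and under none in sgNpm1A. The ZFPM1 match was under peaks of 4025 bp in sgNeg and 1695 bp in sgNpm1A. A match is a run of letters and not evidence of binding.

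Promoters of KLF1 and TAL1 are shown as well, as the 250 bases before the RefSeq start on GRCh38, with GATA (or its complement TATC) and any composite in capitals.
KLF1 promoter, chr19:12887202-12887451, minus strand: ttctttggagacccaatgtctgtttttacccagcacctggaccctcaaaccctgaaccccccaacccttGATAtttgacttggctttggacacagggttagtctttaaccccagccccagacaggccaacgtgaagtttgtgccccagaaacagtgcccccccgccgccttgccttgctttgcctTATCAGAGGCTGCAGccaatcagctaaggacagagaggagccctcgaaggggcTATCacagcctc
TAL1 promoter, chr1:47232336-47232585, minus strand: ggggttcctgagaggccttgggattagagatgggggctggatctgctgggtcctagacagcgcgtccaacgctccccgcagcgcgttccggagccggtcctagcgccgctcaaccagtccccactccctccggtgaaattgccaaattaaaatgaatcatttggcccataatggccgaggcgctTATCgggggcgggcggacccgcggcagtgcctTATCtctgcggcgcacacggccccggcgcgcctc

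The KLF1 promoter held 3 GATA matches, 1 of them inside a composite, and the TAL1 promoter held 2 GATA matches and no composite. Among 34788 distinct RefSeq promoter stretches of this length, 45.7% held a GATA match and 3.22% held a composite. In the 7 member windows, 234 composites were found on GRCh37, of which 33 lay under a sgNeg H3K27Ac peak, 25 under a sgNpm1A peak and 10 under peaks of both. Per 10 kb of peak this was 1.85 in the sgNeg member windows against 2.02 over all sgNeg peaks, and 2.09 against 2.22 in sgNpm1A. The member peaks were thus no denser in the composite than other peaks or than the genome, which held 2.20 per 10 kb.

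Under H3K27Ac the promoters of the 7 genes were spread over a wide range in sgNeg. Peaks reaching within 1 kb of an annotated start were called promoter peaks. LMO2 and LYL1 were among the highest percent of peaks, at percentiles 99.8 and 99.1. TAL1 was at 96.2 and ZFPM1 at 92.8, followed by KLF1 at 46.2 and GATA2 at 10.3, and MECOM had no promoter peak. The count of 6 of 7 genes with a promoter peak stood against 79.2% of all coding genes, and 2 of 7 at or above the 99th percentile against 15.4%. In sgNpm1A the count was again 6 of 7, against 57.1%, and 5 of the 6 genes with a sgNeg promoter peak also had one here, against 66.0%. For TAL1 and GATA2 the highest promoter peak of each list lay at a different place in the gene. None was at or above the 99th percentile, against 0.993%. The percentiles there were 15.2 for LMO2, 45.9 for LYL1, 89.0 for TAL1, 0 for ZFPM1, 19.8 for KLF1, 96.2 for GATA2 and 28.6 for MECOM. Of the 6 genes with a sgNeg promoter peak 5 had a lower percentile in sgNpm1A, against 82.9% of all such genes, and GATA2 and MECOM had a higher one. Across all coding genes 21.9% of those with a promoter peak in either list were higher in sgNpm1A. The median over the 7 genes was 92.8 in sgNeg and 28.6 in sgNpm1A, beside 92.4 and 23.2 over all coding genes. These counts moved with the settings: in sgNpm1A 2 of 7 genes had a promoter peak at a q-value under 0.01 and 3 of 7 with the outer start alone, both with a median of 0, and in sgNeg 2 of 7 had one at a fold of at least 4. Where at least 50% of a peak had to lie inside the promoter, the sgNeg median was 10.3.

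H3K4me3 gave promoter peaks at 5 of 7 genes in sgNeg, against 68.3% of all coding genes, and at 0 of 7 in sgNpm1A, against 9.49%. In sgNeg the percentiles were 98.4 for ZFPM1, 98.0 for LYL1, 91.3 for LMO2, 62.6 for GATA2 and 7.07 for KLF1, and TAL1 and MECOM had none. At the starts listed on GRCh38, no gene reached the 99th percentile in either list. Of all coding genes, 15.9% reached it in sgNeg and 0.188% in sgNpm1A. Only the outer LMO2 start is listed there, so a 1605-bp sgNeg LMO2 peak at percentile 99.4 was classed as distal. That peak lay inside the gene, at a like distance to the inner starts of GRCh37. All 5 genes with a sgNeg promoter peak were lower in sgNpm1A, as were 96.2% of all such genes, and none was higher, against 6.08%. A promoter peak remained in sgNpm1A at 11.4% of all genes that had one in sgNeg, so loss of the listed peak was the common case in this sparser list. With promoters of 2 kb on either side 2 of 7 genes had a sgNpm1A peak, and in sgNeg 3 of 7 had one at a fold of at least 4 or among the 100000 peaks of lowest p-value.

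**Figure D1:**
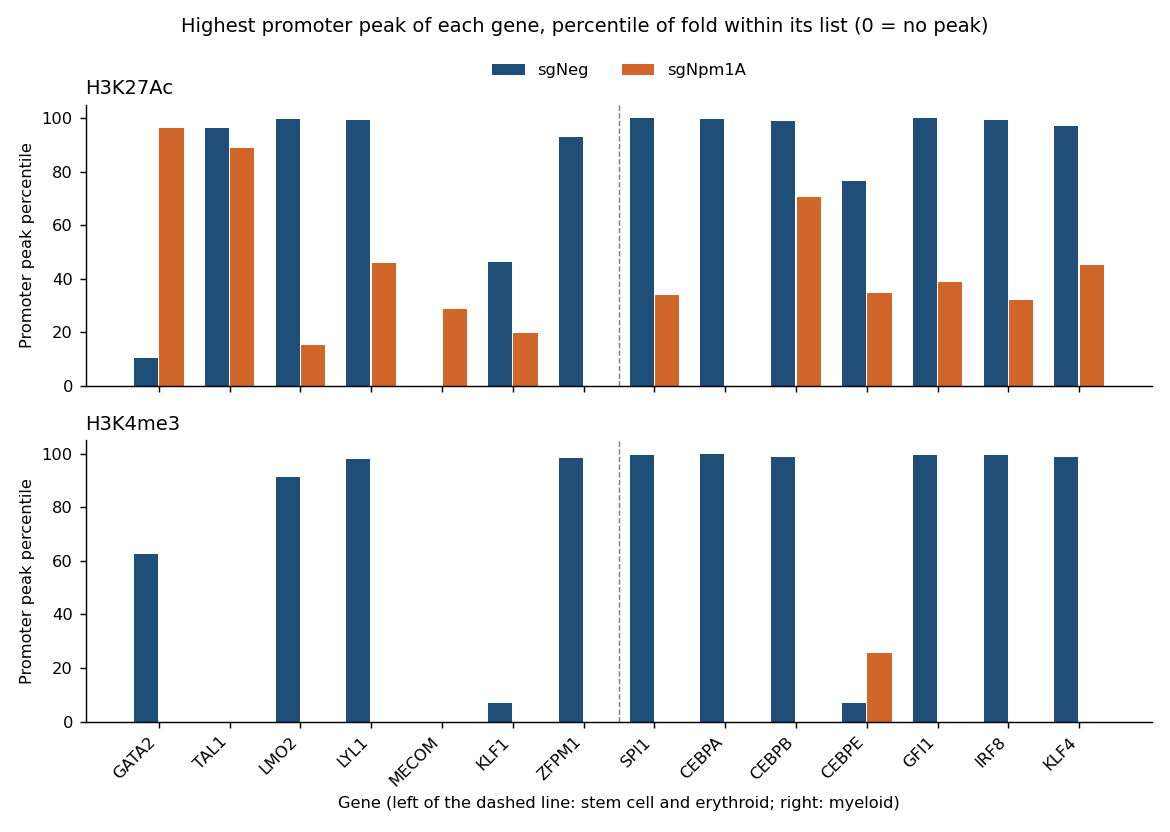
The highest promoter peak of each gene is plotted as its percentile of fold within its list (0 means no peak) for H3K27Ac and H3K4me3, with 1 bar for each library and no error bar because there were no replicates. The stem cell and erythroid genes are left of the dashed line and the myeloid regulators right of it. Among the former, LMO2 and LYL1 stand highest in sgNeg H3K27Ac, and GATA2 and MECOM have the taller bar in sgNpm1A H3K27Ac. No stem cell or erythroid gene has a sgNpm1A H3K4me3 bar.

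LMO2, the bridging protein, carried the widest H3K27Ac domains of the set. The gene lies on chromosome 11 on the minus strand, and its annotated starts fall in an outer group at the gene record's edge and an inner group 21.5 to 22.5 kb inside it, with 1 further start 26.9 kb inside. In sgNeg a peak of 15384 bp from 33883351 to 33898734 spanned the inner starts, with a fold of 7.94, a q-value of 1.16e-19 and rank 622 by fold and 248 by width of the list. A second peak of 13328 bp from 33909535 to 33922862 spanned the outer start, with a fold of 6.38 and percentile 99.4. Another of 11160 bp, with a fold of 3.54, lay 13.5 to 24.7 kb upstream. Peaks covered 57.3% of the LMO2 window in sgNeg, more than in 96.7% of all coding gene windows.

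In sgNpm1A the same LMO2 window was covered to 6.37%, a ratio of 0.111, the lowest among the 7 genes. Its promoter peak was 229 bp wide with a fold of 2.72, and the widest peak, of 1514 bp inside the gene, had a fold of 3.06. Its highest distal peak was 294 bp with a fold of 3.15. None of the 8 sgNpm1A peaks in the window came near the width of the 3 sgNeg domains. Wide peaks were narrower in the whole sgNpm1A list, with a 99th percentile of width of 3219 bp against 5416 bp in sgNeg. For H3K4me3 the sgNeg list had a 623-bp peak 0.824 to 1.45 kb inside the outer start, with 21 fragments at its summit (95% Poisson interval 13.0 to 32.1, for counting error only). A stronger peak of 1605 bp, from 33868200 to 33869804 on GRCh38, had 45 fragments (32.8 to 60.2) and percentile 99.4. It lay 22.3 to 23.9 kb inside the gene and was classed as distal, because the GRCh38 table lists the outer LMO2 start alone, whereas the GRCh37 annotation places its inner starts at a like distance. The sgNpm1A H3K4me3 list had 2 peaks in the LMO2 window, the wider and higher of 584 bp with 14 fragments, and neither overlapped a sgNeg peak.

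LYL1, which can stand in for TAL1 in stem cells, followed LMO2. Its sgNeg H3K27Ac peak ran from 13209749 to 13216378 on chromosome 19, 6630 bp that covered the whole gene, with a fold of 5.89 and a q-value of 6.96e-11. In sgNpm1A the promoter peak was 762 bp with a fold of 2.91 (percentile 45.9), and a 735-bp peak with a fold of 3.26 lay 1.99 to 2.72 kb inside the gene. The highest distal peak in sgNeg was 113 bp wide with a fold of 3.21, and the widest sgNpm1A peak, of 1556 bp, lay 12.1 to 13.7 kb from the start. The window was covered to 57.3% in sgNeg and 22.6% in sgNpm1A. Of the covered length in sgNeg, 26.2% lay in the LYL1 promoter peak, 30.4% at other coding promoters and 43.4% in distal peaks. The shares in sgNpm1A were 7.64%, 24.8% and 67.6%. The widest distal sgNeg peak, of 6265 bp, overlapped an exon of the neighbour NFIX, so much of this coverage was not at LYL1 itself. For H3K4me3, the sgNeg peak just inside the start was 1337 bp wide with 32 fragments (21.9 to 45.2), and the sgNpm1A list had none at the gene. The LYL1 window also holds the promoters of its neighbours TRMT1 and NACC1, whose shared sgNeg H3K4me3 peak had 71 fragments (55.5 to 89.6), more than LYL1. No sgNpm1A H3K4me3 peak lay at a promoter of these neighbours within the window either. The highest distal H3K4me3 peaks, 2 tied ones of 611 and 344 bp, held 19 fragments in sgNeg, and the sgNpm1A list had 2 peaks in the window, of 584 bp with 12 fragments and 462 bp with 14.

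**Figure D2:**
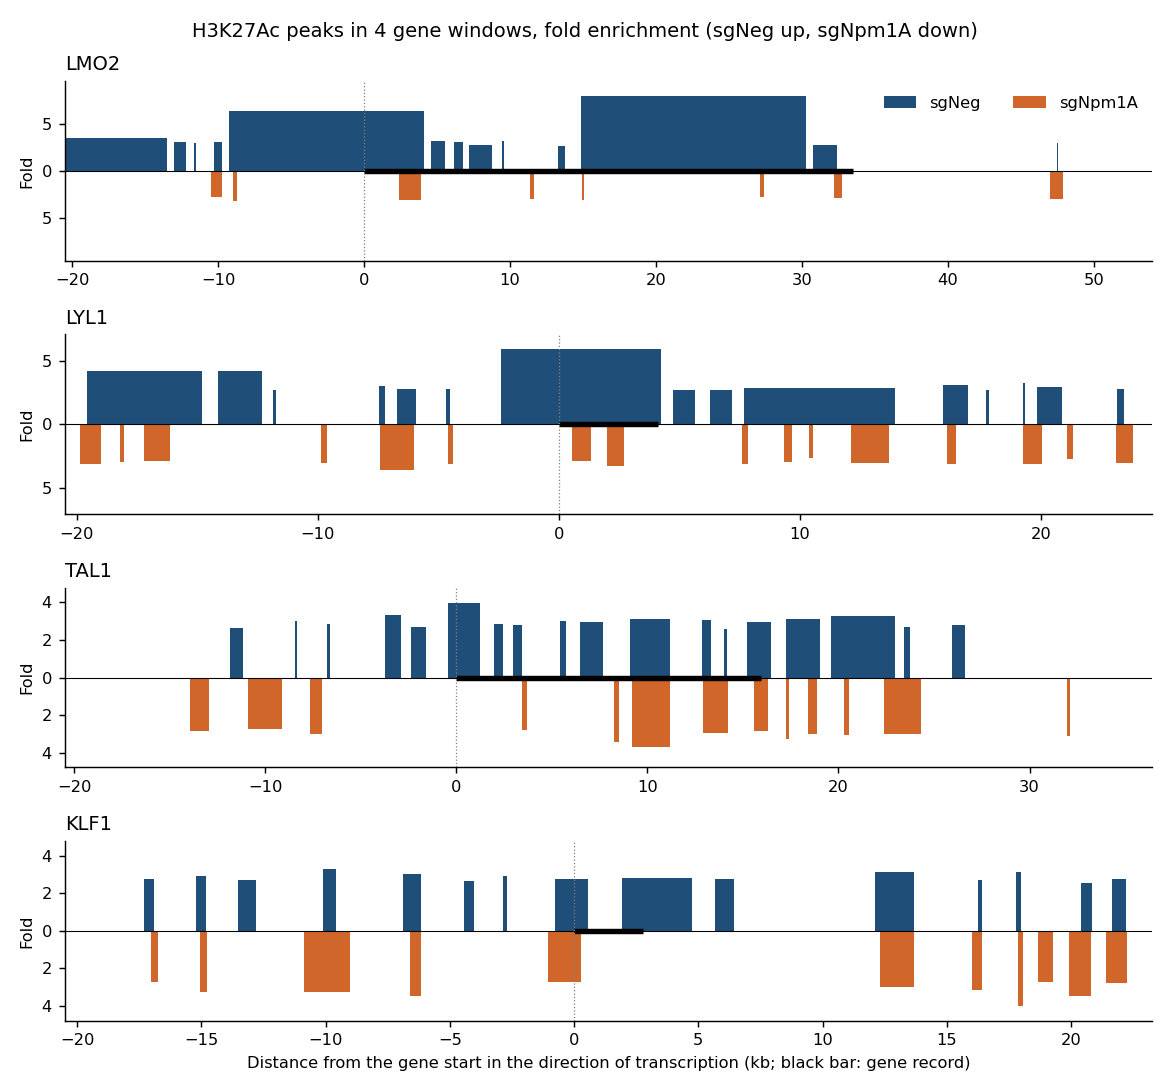
H3K27Ac peaks in the windows of LMO2, LYL1, TAL1 and KLF1 are drawn as boxes along the distance from the gene start in kb, with fold enrichment upward for sgNeg and downward for sgNpm1A and the gene record as a black bar. The 3 broad sgNeg boxes at LMO2 and the broad box over LYL1 face only narrow sgNpm1A boxes, whereas the intronic TAL1 peak (2087 and 2029 bp) and the KLF1 promoter peak (1293 and 1339 bp) stand on both sides.

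TAL1, the E-box binding partner in this complex, had a mixed pattern. At the outer start on chromosome 1 the sgNeg H3K27Ac list had a 1685-bp peak from 47696645 to 47698329 with a fold of 3.99, and the sgNpm1A list had none within 1 kb. An intronic peak 9.11 to 11.2 kb inside the gene was present in both lists with nearly the same ends. It ran from 47686703 to 47688789 in sgNeg with a fold of 3.11 (percentile 81.8) and from 47686698 to 47688726 in sgNpm1A with a fold of 3.67 (percentile 94.8). A slight difference in its edge made it a promoter peak of an inner start in sgNeg and a distal one in sgNpm1A. The sgNpm1A promoter value of 89.0 came from another peak, of 264 bp, near an inner start, so the values of 96.2 and 89.0 belong to different places in the gene. The widest sgNeg peak, of 3350 bp with a fold of 3.26, lay 19.6 to 22.9 kb from the start, and the highest distal one, of 847 bp with a fold of 3.34, lay 2.88 to 3.73 kb upstream.

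No H3K4me3 peak lay within 1 kb of a TAL1 start in either list. Inside the gene, 10.8 to 11.1 kb from the GRCh38 start, sgNeg had a 383-bp peak with 26 fragments (17.0 to 38.1), and sgNpm1A had an overlapping 342-bp peak at percentile 43.9. The widest sgNpm1A peak of the window was 583 bp with 12 fragments, and the highest distal one was 264 bp with 14. Coverage of the window was 30.2% in sgNeg and 19.6% in sgNpm1A for H3K27Ac, and 3.88% and 2.68% for H3K4me3.

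GATA2 had little H3K27Ac at its own starts in sgNeg and more far upstream. The gene is on chromosome 3 from 128198270 to 128212044 on the minus strand. The 2 sgNeg promoter peaks were 267 bp and 259 bp wide, with folds of 2.54 and 2.55, both near inner starts, and none lay at the outer start. In sgNpm1A there were 3 promoter peaks, a 202-bp peak just upstream of the outer start with a fold of 3.07 (percentile 65.4), and peaks of 208 bp and 315 bp near inner starts, 12.1 to 12.3 kb and 10.6 to 11.0 kb inside the gene. The 315-bp peak, with a fold of 3.79, set the percentile of 96.2. None of the 2 sgNeg and 3 sgNpm1A promoter peaks overlapped a peak of the other list. The promoter values of 10.3 in sgNeg and 96.2 in sgNpm1A thus belong to different places in the gene. The outer start alone was at 65.4 in sgNpm1A and at 0 in sgNeg. Within 20 kb of the gene, coverage was 10.5% in sgNeg and 21.8% in sgNpm1A, whereas over the full window it was 19.8% and 17.5%. The direction of the GATA2 difference thus turned with the window, from a ratio of 2.08 to 0.887.

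Upstream of GATA2 the sgNeg H3K27Ac peaks gathered between 100 and 130 kb from the start. In 10-kb steps from 100 kb, peaks covered 49.4%, 71.2% and 69.9% in sgNeg and 18.4%, 35.8% and 9.48% in sgNpm1A. No other step exceeded 31.5% in sgNeg. The widest peak there was 4535 bp from 128321018 to 128325552 with a fold of 3.59, and the strongest was 3071 bp from 128335310 to 128338380 with a fold of 4.04, percentile 96.4 and a q-value of 4.18e-05. The stretch reaches the RPN1 gene. In the opposite sense, the step next to the start was covered to 11.9% in sgNeg and 36.8% in sgNpm1A, and the step 50 to 60 kb upstream to 5.53% and 32.3%. The sgNpm1A peaks in the far stretch were narrow, at most 1127 bp, but 1 of 687 bp reached percentile 95.5, so some positions ranked high while the broad coverage was not listed. The widest sgNpm1A peak of the window, of 1515 bp, lay 5.51 to 7.02 kb upstream, and its highest distal peak, of 185 bp with a fold of 3.76, lay 80.3 kb upstream.

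H3K4me3 around GATA2 was weak. The sgNeg promoter peak was 245 bp with 16 fragments (9.15 to 26.0). The strongest peak of the window lay in the same far upstream stretch, 125 kb from the start, with 678 bp and 28 fragments (18.6 to 40.5), and it was joined by a peak of 24 fragments 120 kb upstream. Neither had an overlapping peak in sgNpm1A. Inside the antisense gene GATA2-AS1, 1755 to 2365 bp upstream in sgNeg and 1868 to 2743 bp upstream in sgNpm1A, overlapping peaks were listed, with 21 fragments (13.0 to 32.1) in sgNeg and 18 (10.7 to 28.4) in sgNpm1A, over backgrounds of 3.81 and 2.93. The sgNpm1A peak, at percentile 92.6, was its strongest in the GATA2 window.

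**Figure D3:**
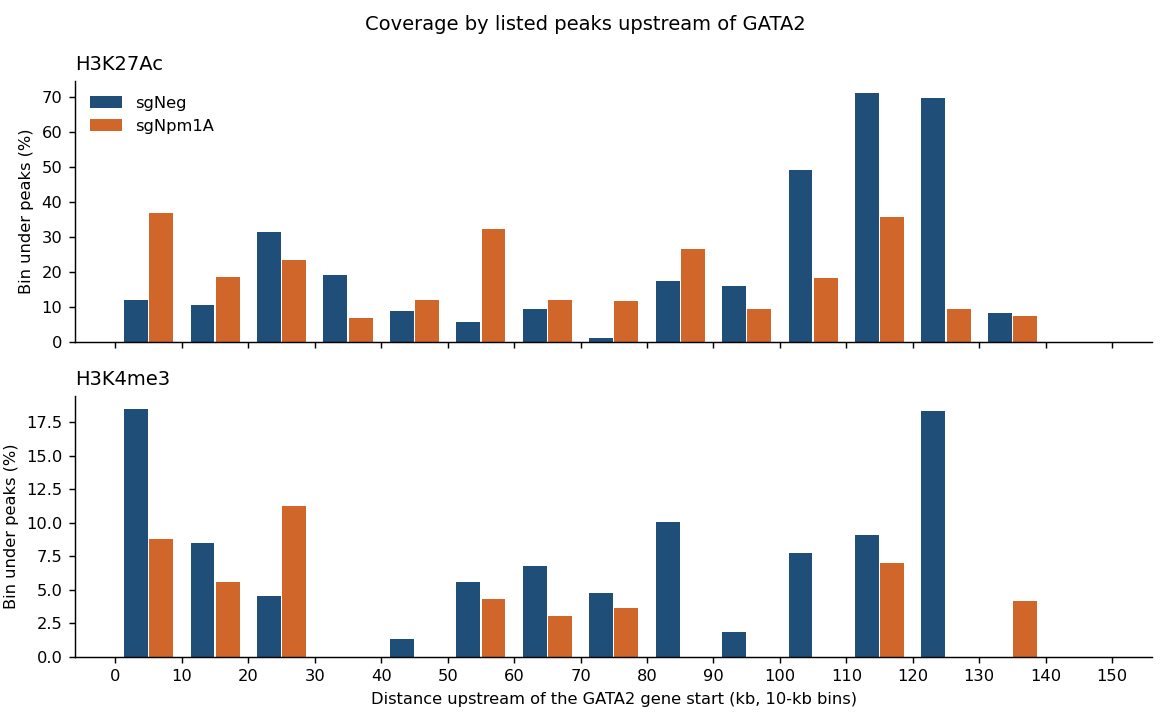
The share of each 10-kb bin under listed peaks is plotted against the distance upstream of the GATA2 start for both marks, with 1 bar for each library. Bars for sgNeg H3K27Ac rise to 49.4%, 71.2% and 69.9% between 100 and 130 kb, where sgNpm1A stays at 35.8% or below, and the sgNpm1A bar is the taller one next to the start.

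MECOM, the stem cell factor at the other end of the rearrangement named above, was nearly bare. Its window of 620.3 kb on chromosome 3 had no promoter peak of either mark in sgNeg. H3K27Ac peaks numbered 34 in sgNeg and 54 in sgNpm1A and covered 1.40% and 3.50%, the only window of the 7 with more coverage in sgNpm1A when GATA2 is taken with its 150 kb upstream. Its sgNeg coverage exceeded that of 13.7% of all coding gene windows. The sgNpm1A promoter peaks were 1160 bp and 360 bp wide, with folds of 2.69 and 2.80, 531 and 516 kb inside the gene record near inner starts. The widest sgNeg peak was 640 bp. The highest distal peaks were 186 bp with a fold of 3.34 (percentile 90.2) in sgNeg and 182 bp with a fold of 3.90 (percentile 97.3) in sgNpm1A. Of the sgNeg peaks 8 overlapped a sgNpm1A peak, 23.5% of them, against 50.7% of all sgNeg H3K27Ac peaks. H3K4me3 coverage was 1.24% and 1.15%, and the highest distal H3K4me3 peaks held 23 fragments in sgNeg (195 bp) and 16 in sgNpm1A (607 bp), the widest being 409 and 854 bp.

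KLF1, the red cell factor, had a low H3K27Ac peak over its promoter in both lists. It was 1293 bp from 12997470 to 12998762 on chromosome 19 with a fold of 2.75 in sgNeg, and 1339 bp from 12997733 to 12999071 with a fold of 2.75 in sgNpm1A. The percentile differed, 46.2 against 19.8, although the folds and widths were alike, and the median fold of the whole list was 2.78 in sgNeg and 2.94 in sgNpm1A. On GRCh37 both peaks covered 2 composites, 65 and 444 bp upstream of the start, the nearer being the one shown in the promoter sequence. For H3K4me3, sgNeg had a 132-bp peak with 12 fragments (6.20 to 21.0), just above the weakest listed summit, and sgNpm1A had none. The neighbour GCDH, within 5.04 kb, had 44 fragments (32.0 to 59.1) in sgNeg. This gene-dense window was covered to 25.9% and 19.9% for H3K27Ac, and 63.2% of the covered length in sgNeg and 47.2% in sgNpm1A lay in peaks at other coding promoters. The widest peaks, of 2815 bp in sgNeg and 1843 bp in sgNpm1A, were of that kind. The highest distal peaks were 727 bp with a fold of 3.03 in sgNeg and 877 bp with a fold of 3.50 in sgNpm1A. For H3K4me3 the highest distal peaks were 2 tied ones of 300 and 208 bp with 21 fragments in sgNeg, and in sgNpm1A a 1736-bp peak with 15 fragments, also its widest.

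ZFPM1, the GATA cofactor, had a sgNeg H3K27Ac promoter peak of 3262 bp with a fold of 3.49 and none in sgNpm1A. The strongest peak of the window was near the end of the gene, 78.3 to 82.3 kb from the start. In sgNeg it ran from 88598000 to 88602024 on chromosome 16, 4025 bp with a fold of 4.92, percentile 98.2 and a q-value of 5.21e-08. In sgNpm1A a 519-bp peak at its far edge had a fold of 4.31 and percentile 98.8, the highest percentile of any sgNpm1A H3K27Ac peak in the 7 windows. This position therefore ranked alike in both lists while the width of the peak that held it differed. The wider sgNpm1A peak over the ZFPM1 composite shown above also overlapped this sgNeg peak. The widest sgNpm1A peak, of 2372 bp, lay 71.4 to 73.8 kb from the start. For H3K4me3, sgNeg had a 933-bp peak with 35 fragments (24.4 to 48.7) 1.54 to 2.47 kb inside the gene record, next to a RefSeq start, and sgNpm1A had none. The highest distal H3K4me3 peaks were 700 bp with 24 fragments in sgNeg and 353 bp with 18 in sgNpm1A, and the widest were 1089 and 1345 bp. Coverage was close, 31.0% and 25.6% for H3K27Ac and 13.1% and 10.9% for H3K4me3.

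**Figure D4:**
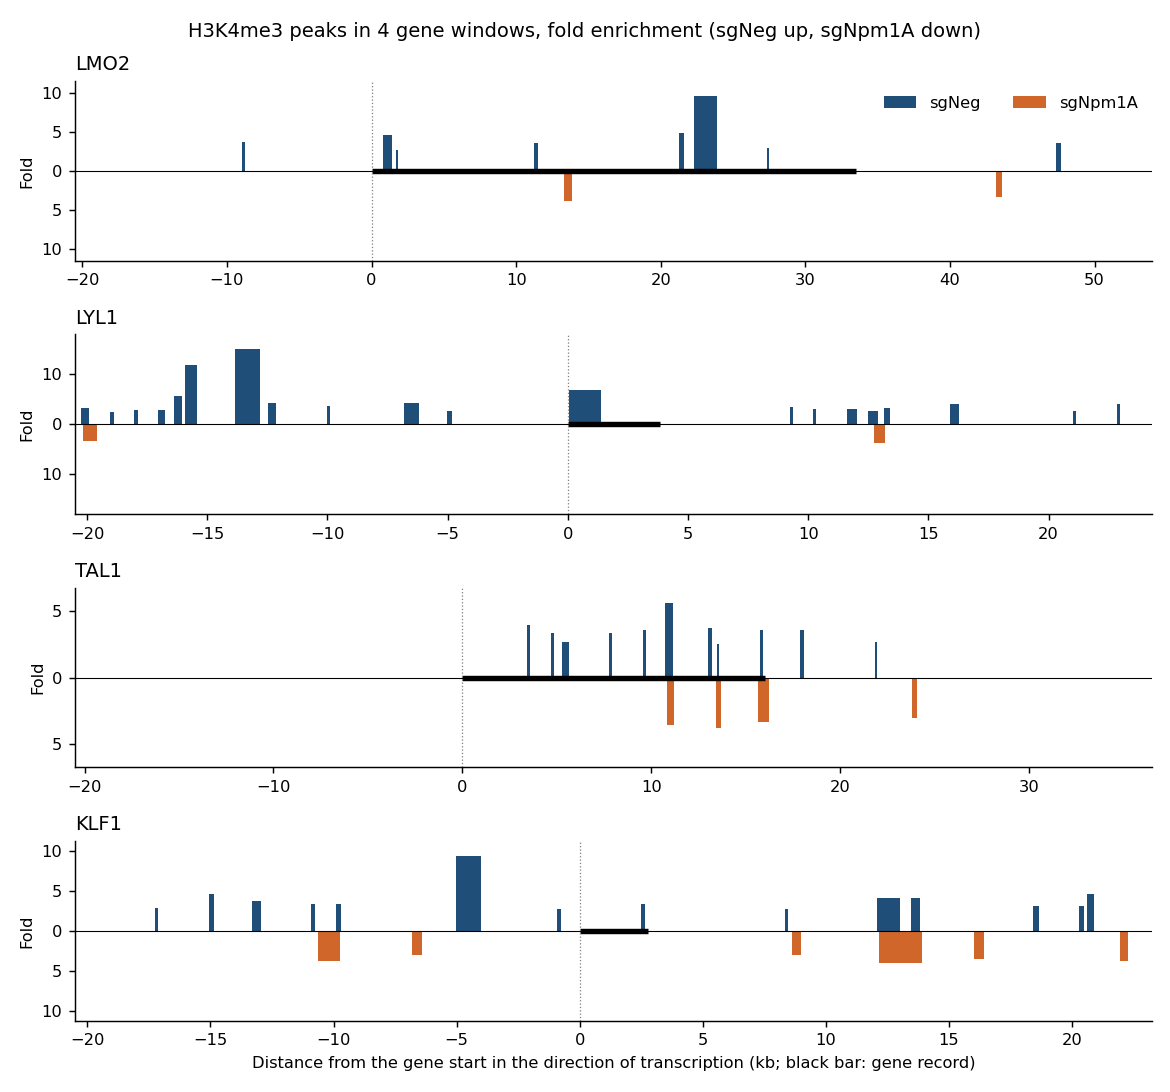
H3K4me3 peaks in the windows of LMO2, LYL1, TAL1 and KLF1 are drawn along the distance from the GRCh38 gene start in kb, with fold enrichment upward for sgNeg and downward for sgNpm1A and the gene record as a black bar. The tall sgNeg boxes lie inside LMO2 (fold 9.57), at the start of LYL1 (6.86), at the TRMT1 and NACC1 promoters upstream of LYL1 (15.0) and at GCDH upstream of KLF1 (9.36), and none of them faces a sgNpm1A box.

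Distal peaks, those over 1 kb from any coding start, made up most of the listed peaks in the windows. For H3K27Ac they were 169 of 193 peaks in sgNeg and 177 of 196 in sgNpm1A. The distal share over all peaks was not computed for either mark, so no distal count here is read as particular to these genes. Of the sgNeg H3K27Ac peaks in the windows 55.4% had an overlapping sgNpm1A peak, and 58.7% of the sgNpm1A peaks overlapped a sgNeg one, against 50.7% and 51.4% over all peaks. The sharing was thus close to that of the lists as a whole. For H3K4me3, 189 of 204 sgNeg peaks and 71 of 73 sgNpm1A peaks were distal, and 18.1% and 45.2% overlapped the other list, against 22.6% and 61.2% over all peaks. Wide peaks differed more. Of the 193 sgNeg H3K27Ac peaks, 5 were in the widest percent of the list, 3 at LMO2 and 2 in the LYL1 window. None of the 196 sgNpm1A peaks was in the widest percent of its own list. By definition this level holds the same share of each list. Over all peaks it began at 5416 bp in sgNeg and 3219 bp in sgNpm1A, so the whole sgNpm1A list had narrower wide peaks. A q-value under 1e-05 was reached by 6 of 193 sgNeg H3K27Ac peaks, against 2.88% of all peaks in that list, and by 0 of 196 sgNpm1A peaks, against 0.908%.

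The myeloid regulators were higher than the stem cell and erythroid genes in sgNeg. Under H3K27Ac all 7 had a promoter peak, with a median percentile of 99.1 against 92.8, and 5 of 7 were at or above the 99th percentile against 2 of 7. SPI1, which encodes PU.1, was at 99.97 with a fold of 10.5, and CEBPA at 99.8 with a peak of 15908 bp. IRF8 had a single peak of 42939 bp. LMO2 and LYL1 were within the range of the myeloid genes, and CEBPE, at 76.5, was below TAL1 and ZFPM1, so the sets overlapped. Under H3K4me3 the medians were 99.4 and 62.6, and 4 of 7 myeloid genes against 0 of 7 were at or above the 99th percentile. The 0 of 7 leaves out the inner LMO2 peak at percentile 99.4, classed as distal because GRCh38 listed the outer start alone. That gap of medians depended on the promoter: it was -8.02 with 2 kb on either side and 0 where at least 50% of a peak had to lie inside. For H3K27Ac the latter setting, which no peak wider than 4 kb can meet, turned the difference from -6.30 to 10.3.

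In sgNpm1A the H3K27Ac medians were 34.8 for the myeloid and 28.6 for the stem cell and erythroid genes, a difference of -6.19 that was -32.2 with the outer start alone. Both H3K4me3 medians were at the floor of 0, with 1 of 7 and 0 of 7 promoter peaks. H3K27Ac peaks covered 48.4% of the summed myeloid windows in sgNeg and 14.1% in sgNpm1A, and 15.6% and 10.5% of the summed stem cell and erythroid windows, of which MECOM takes 620.3 of 1144 kb. The median ratio per gene of sgNpm1A to sgNeg was 0.239 for the myeloid and 0.768 for the stem cell and erythroid genes, beside 0.722 over all coding genes. With 20 kb on either side for every gene, coverage was lower in sgNpm1A in all 7 myeloid windows and in 5 of the 7 others, against 67.1% of all coding gene windows, and higher for GATA2 and MECOM. With the 150 kb upstream of GATA2 it was lower in 6 of the 7. It was under 0.5 times the sgNeg value in 6 of 7 myeloid windows and in 2 of 7 of the others (LMO2 and LYL1), against 31.5% of all windows. For H3K4me3 the median ratios were 0.0475 and 0.691, beside 0.342 over all coding genes. All 14 windows were less covered in sgNpm1A, against 94.0% of all windows. In the summed stem cell and erythroid windows, the H3K4me3 ratio of 0.646 became 1.29 when both lists were limited to their 100000 peaks of lowest p-value, of 353628 in sgNeg and 106641 in sgNpm1A. In the full lists, 6 of 7 and 2 of 7 windows were under 0.5 times, against 65.6% of all windows. With 20 kb flanks, myeloid H3K27Ac ratios ran from 0.0833 for GFI1 to 0.959 for CEBPE, with 0.156 for IRF8 and 0.411 for SPI1. LMO2 at 0.111, LYL1 at 0.394, and TAL1, KLF1 and ZFPM1 between 0.650 and 0.825 lay within that range. GATA2 at 2.08 and MECOM at 2.49 lay above it.

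**Figure D5:**
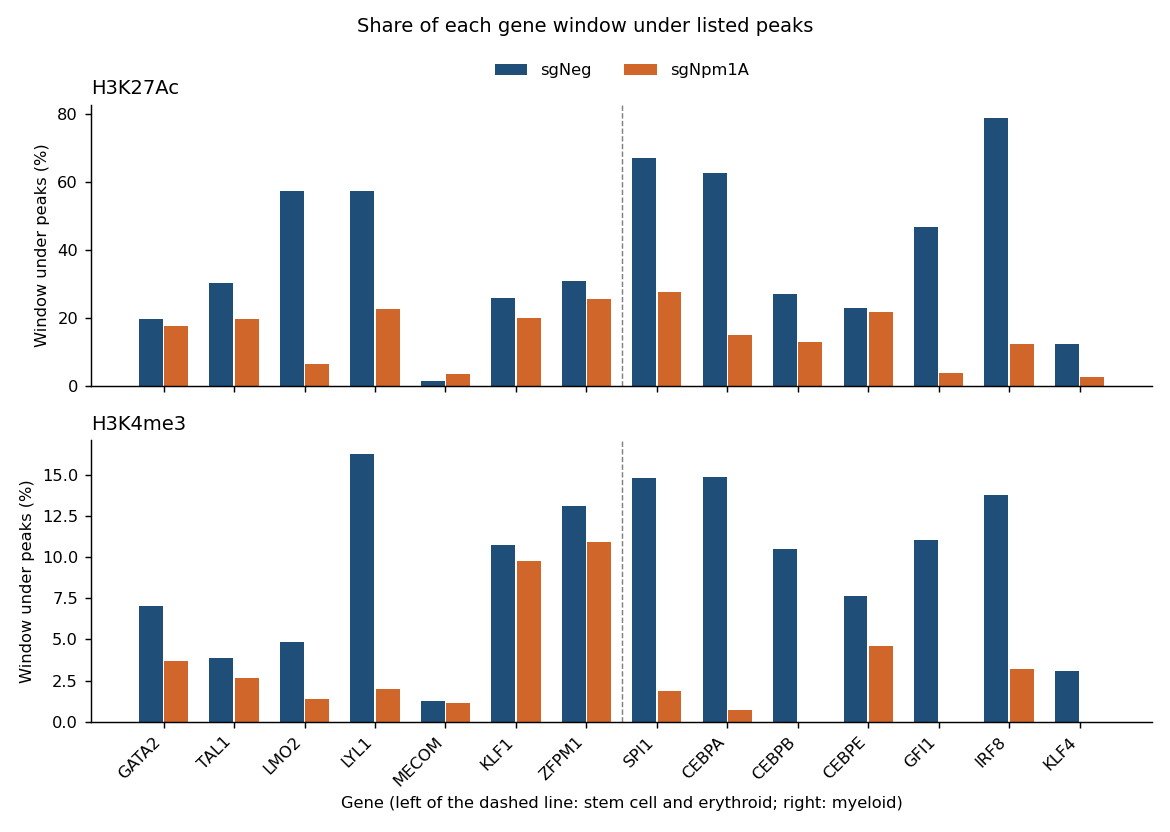
The share of each gene window under listed peaks is plotted in percent for both marks and guides, with 1 bar for each library, the stem cell and erythroid genes left of the dashed line and the myeloid regulators right of it. LMO2 and LYL1 both stand at 57.3% in sgNeg H3K27Ac and at 6.37% and 22.6% in sgNpm1A, and MECOM is the only gene with a taller sgNpm1A H3K27Ac bar, the GATA2 window including 150 kb upstream here.

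Partners of the same complex and network were read from a list of 11 genes. H3K27Ac promoter peaks were listed at 10 of 11 in sgNeg, against 79.2% of all coding genes, and at 7 of 11 in sgNpm1A, against 57.1%. H3K4me3 promoter peaks were listed at 9 of 11 in sgNeg, against 68.3%, and at 0 of 11 in sgNpm1A, against 9.49%. The highest sgNeg H3K27Ac percentile was that of TCF12, an E-protein partner of TAL1, at 99.95 in sgNeg and 0 in sgNpm1A. The lowest was GATA1, the erythroid GATA factor, which had no promoter peak in any of the 4 lists. All 10 partners with a sgNeg H3K27Ac promoter peak had a lower percentile in sgNpm1A, against 82.9% of all such genes, and the median coverage ratio was 0.378, beside 0.722 over all coding genes.

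Cell type markers were read in the same way. In sgNeg H3K27Ac, 79.2% of all coding genes had a promoter peak. So did 6 of 6 myeloid markers (CD33, MPO, CSF1R, CSF3R, ITGAM and LYZ), at percentiles of 90.3 to 99.3. Of the erythroid markers EPOR, HBB and SLC4A1 had one, at percentiles of 97.9, 93.1 and 83.9, and ALAS2 and AHSP had none. The HBB peak was 150 bp wide and lay over 1 kb from the start of the gene record. The megakaryocytic markers ITGA2B, PF4 and GP9 all had one, at percentiles of 14.5 to 81.7. In sgNpm1A 57.1% of all coding genes had one. So did 5 of 6 myeloid markers, at percentiles of 73.7 to 98.9, and 3 of 3 megakaryocytic markers, at 21.4 to 63.7. EPOR, HBB and SLC4A1 again had one, at percentiles of 39.2, 29.3 and 52.5, and ALAS2 and AHSP again had none. At the gene record start alone, CD33, CSF3R and HBB had no sgNpm1A peak. There ITGAM was at 29.7, CSF1R at 55.9, SLC4A1 at 35.2 and ITGA2B at 48.7, and EPOR, MPO, PF4 and GP9 kept their values. For H3K4me3 in sgNeg, 3 of 6 myeloid markers, 1 of 3 megakaryocytic markers and the erythroid markers AHSP and SLC4A1 had a promoter peak. In sgNpm1A CSF1R and SLC4A1 alone did among the markers named here. Over all coding genes, 68.3% had one in sgNeg and 9.49% in sgNpm1A.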

How the data were processed

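OCI-AML3 cells with sgNeg or sgNpm1A were profiled by ChIPmentation, in which Tn5 transposase adds adapters to precipitated chromatin. The 6 samples form 6 groups of 1 library; the 2 inputs were not analysed here. The submitters' processing notes name bcl2fastq 2.17, Trimmomatic 0.33, Bowtie 1.1.2, MACS2 2.1.0 and hg38. Peaks on chromosome 1 end at 249218478 and 249212461 in the H3K27Ac lists, which puts them on GRCh37, and peaks on chromosome 17 at 83201880 and 83201881 in the H3K4me3 lists, which puts these on GRCh38. Nothing was converted between builds. Peak calling settings, threshold and use of inputs were not given in the sources used here, and no shift of Tn5 cut sites was stated.

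The deposited fold enrichment is a ratio to the expected pileup. The authors' caller also gave a −log10 p-value and a −log10 q-value for each peak. The deposited score and summit offset are from the authors' caller, and the score was not used. Python 3.11.15 with pandas 2.3.3, numpy 2.4.6, scipy 1.17.1 and matplotlib 3.10.9 was used. Starts came from GENCODE version 44 on GRCh37 (any transcript) and, for GRCh38, from a RefSeq gene table with starts of a RefSeq promoter table where these differ, so fewer starts per gene were available (28025 against 146400). The promoter table held 6 of the 7 genes and not LMO2. Strand was found for 19662 of 20052 coding records of GRCh38. Peaks on 24 chromosomes were ranked by fold, ties sharing a mean rank, and an overlap was at least 1 bp. Poisson intervals are 95% and cover counting error only. PCR duplicates cannot be recognised in a peak list. Interval and rank code was tested on simulated peaks. The members, myeloid regulators, partners and markers were chosen with earlier results of these data known. Of the erythroid markers 1 is not reported here. Named genes were the members and myeloid regulators, the partners of highest and lowest sgNeg percentile, and for each member its highest promoter, widest and highest distal peaks. Alternatives were a stricter q-value, fold or list length, a wider promoter, the gene record start, ranking by p-value, an overlap of 50% of the peak, and shorter windows.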

Additional observations from a re-analysis of the deposited data

How the results depend on the processing

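No paired analysis was possible because each group held 1 library, and for the same reason no library was left out. The 9 alternatives gave 116 values, of which 75 stayed within 1.5 times the main value with its direction, 39 moved further and 2 reversed. The 75 include sgNpm1A H3K4me3 promoter counts and medians that were 0 in both settings, so they are not a measure of stability. H3K27Ac coverage with GATA2 taken at 20 kb only had a ratio of 0.670. Percentiles refer to the full list, so the q-value, fold and list-length limits could remove a promoter peak but not change its percentile. Below, values are for the 7 stem cell and erythroid genes, and a difference is their median percentile minus that of the myeloid regulators.

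At a q-value under 0.01, H3K27Ac peaks covered 8.07% of the summed windows in sgNeg and 4.38% in sgNpm1A, where 2 genes had a promoter peak, with a median percentile of 0 and a difference of 0. At a fold of at least 4, H3K27Ac promoter peaks remained at 2 genes in sgNeg and 0 in sgNpm1A. Both medians were then 0, the differences were -99.1 and 0, and coverage was 4.29% and 0.0639%, a ratio of 0.0149. For H3K4me3 in sgNeg, 3 genes had a promoter peak, the median was 0 and the difference -99.4, with coverage of 1.55% in sgNeg and 0.818% in sgNpm1A. With the 100000 peaks of lowest p-value, H3K27Ac coverage was 9.74% and 4.11%, a ratio of 0.422, and 2 genes had a promoter peak in sgNpm1A, with a median of 0 and a difference of 0. For H3K4me3 3 genes had a sgNeg promoter peak, the median was 0, the difference was -99.4 and coverage 2.27%, and the coverage ratio of sgNpm1A to sgNeg turned from 0.646 to 1.29. This limit keeps 100000 of 106641 sgNpm1A peaks and 100000 of 353628 sgNeg peaks.

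With promoters of 2 kb on either side, the difference was -3.76 in sgNpm1A H3K27Ac and -8.02 in sgNeg H3K4me3, and 2 genes had a sgNpm1A H3K4me3 promoter peak. With the start of the gene record only, 3 genes had a sgNpm1A H3K27Ac promoter peak, with a median of 0 and a difference of -32.2. With at least 50% of the peak inside the promoter, which no peak wider than 4 kb can meet, the sgNeg H3K27Ac median was 10.3 and the difference turned to 10.3, and for sgNeg H3K4me3 they were 7.07 and 0. Without flanks, coverage in sgNeg H3K27Ac was 9.90%. The summed windows were less covered by H3K27Ac in sgNpm1A under each of the 6 alternatives that bear on coverage, although MECOM was more covered in the main setting and GATA2 with 20 kb only. A weak mark below 11 or 10 fragments at its summit cannot be seen in the H3K4me3 lists.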
